A study of Mus musculus with 16 samples.

Results

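Gene expression in the demyelinated lesion of the mouse spinal cord was followed from day 5 to day 10 in mice that did not run. Every mouse of the study had been given lysolecithin, a lipid that acts as a detergent and removes the myelin around axons, and the lesion was cut out of frozen cord by laser microdissection. The comparison uses 8 of the 16 libraries, chosen by their labels: 4 control libraries of day 5 (replicates 1, 2, 5 and 6) and 4 of day 10 (replicates 2, 3, 4 and 5). Control mice were kept under the same conditions as running mice, with the wheel locked. The other 8 libraries come from mice with a turning wheel (exercise), 4 at each day, and enter here through the shared estimate of spread and 1 comparison. All mice are labelled C57BL/6, 8 to 12 weeks old, and no uninjured cord is among the samples used here. The labels do not say that each library is a separate animal, so p-values here rest on how far these libraries differ from each other, which may be technical. A microdissected lesion holds every cell within the cut, and in such bulk samples fewer cells of a type and less RNA per cell cannot be told apart.

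After this injury, microglia of the cord and macrophages derived from blood monocytes take up myelin debris, and oligodendrocyte precursors multiply, move in and mature into cells that wrap axons again. Maturing oligodendrocytes leave the cell cycle and switch on the proteins of compact myelin. Phagocytes that have taken up myelin must store or export its cholesterol, and export runs through the nuclear receptor LXR and its target Apoe.

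The 8 control libraries held 10714317 to 13930582 counts on genes, and the mitochondrial ribosomal RNA genes took 8.08% to 12.63% of them, with overlapping ranges at the 2 days. In a multidimensional scaling of these 8 libraries the first dimension (30.6% of the variance) had day 5 between -0.99 and -0.783 and day 10 between 0.836 and 0.957. On the second (15.2%), replicates 4 and 5 of day 10 lay at opposite ends, at 1.305 and -1.113. Defining markers of oligodendrocytes, microglia, astrocytes, vessels and meningeal fibroblasts (Olig2, P2ry12, Gfap, Pecam1 and Dcn) were read in every library. Neuronal Rbfox3 stayed at 1.43 CPM or less and cholinergic Chat at 3.71 CPM or less. Of 21 lymphocyte genes 13 were too low to test, with 1 count of Cd3e and 10 of Nkg7 over the 8 libraries. The other 8 gave 0 calls (median 0.55). All 21 summed to 32.4 to 53.4 CPM at day 5 and 35.3 to 50.8 CPM at day 10, with the T-cell receptor gene Trac at 1.69 ± 0.527 to 2.7 ± 0.92 CPM. Of 14 neutrophil genes 7 were too low to test, with 4 counts of Ly6g. All 14 summed to 93.1 to 121.6 CPM at day 5 and 146.5 to 232.7 CPM at day 10, largely from Csf3r.

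Of 15096 genes tested, 1858 (12.3%) passed an adjusted p of 0.05, 855 of them higher at day 10 (5.66%) and 1003 lower (6.64%). CPM below is a count scaled to 1 common effective library size (edgeR's cpm), and values per library are given in the order of the replicates listed above. The called genes moved by a median of 0.79 on the log2 scale upwards and -0.77 downwards, against a median of 0.011 over all genes tested. At least 2-fold changes (1 on the log2 scale) were reached by 298 of the higher and 335 of the lower genes, and 4-fold changes by 65 and 68. Among all genes tested, the 4 and 4 libraries did not overlap in 1408 genes that were higher (9.33%) and 1608 that were lower (10.7%). Of the called genes, 775 of the higher and 938 of the lower ones did not overlap.

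**Figure D1:**
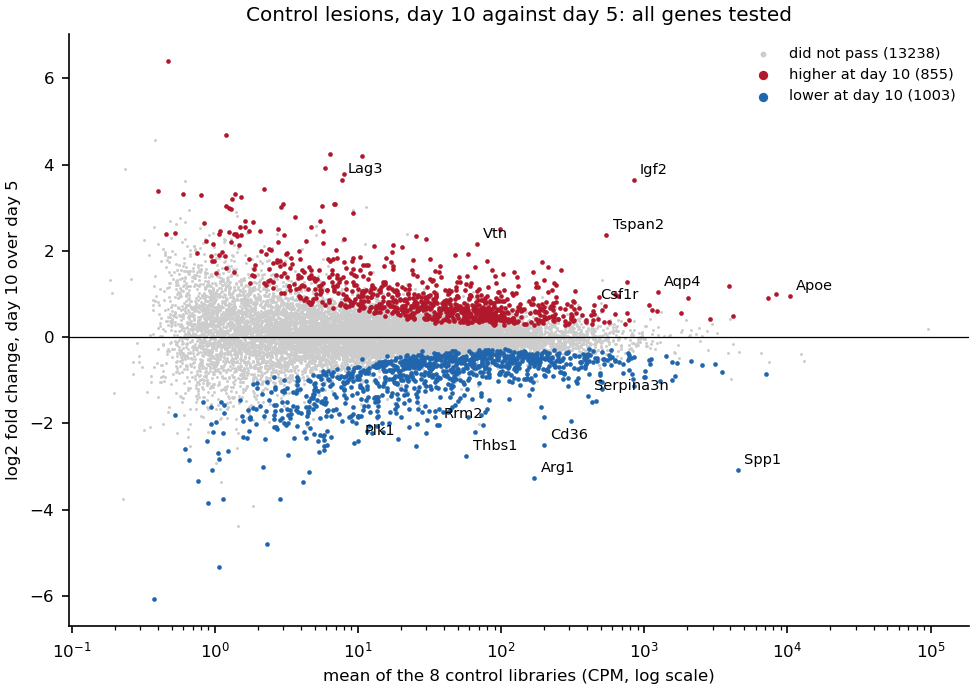
Each point is a gene: the horizontal axis is its mean over the 8 control libraries in CPM on a log scale, and the vertical axis is the log2 fold change of day 10 over day 5. Red points (855) were higher and blue points (1003) lower at an adjusted p of 0.05; Spp1 and Arg1 lie at the bottom and Igf2 at the top among well-expressed genes.

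By the rule for naming genes (non-overlapping libraries and a mean of at least 5 CPM in the higher group), the 15 largest falls were those of Raet1d, Amigo3, Arg1, A730020M07Rik, Spp1, Thbs1, Mtfr2, Shcbp1, F7, Birc5, Klk8, Cd36, Fignl1, Cep55 and Plk1. Of these, Plk1 and Birc5 are on the list of mitotic genes, and Spp1, Arg1, Thbs1 and Cd36 on lists of phagocyte or lipid uptake genes described below. Klk8, a secreted protease, was also among them (log2 fold change -2.53, SE 0.36, adjusted p 0.000277). Its libraries gave 38.3, 49.9, 41.3 and 44 CPM at day 5 and 4.94, 4.91, 13.4 and 6.96 CPM at day 10, and day 10 replicate 4 was the highest of its group. The neuronal adhesion gene Amigo3 was on the list with an uneven day 5 group, at 11.9, 15.5, 1.25 and 1.31 CPM at day 5 and 0.683, 1.0, 0.186 and 0.982 CPM at day 10. Day 5 replicates 1 and 2 were high for it, and replicates 5 and 6 lay near day 10. The 15 largest rises were those of C6, a terminal complement component, Sostdc1, an antagonist of BMP and Wnt signalling, the collagen genes Col6a5 and Col8a2, the matrix protease gene Mmp3, Igf2, Lag3, Kng2, Olfml2a, Kank4, Scn7a, Il4i1, the alcohol dehydrogenase gene Adh1, Gm16685 and Gm42528. C6 was read at 1.67, 0, 0.802 and 0.073 CPM at day 5 and 20.5, 9.63, 7.63 and 10.9 CPM at day 10 (log2 fold change 4.25, SE 0.86, adjusted p 0.00412). Day 5 was near 0 in all 4 libraries, and day 10 replicate 2 was the highest. Lag3, an inhibitory receptor best known on T cells and also expressed by microglia, was at 0.636, 0.666, 1.6 and 1.6 CPM at day 5 and 14.2, 12.4, 17.2 and 13.3 CPM at day 10 (log2 fold change 3.65, SE 0.38, adjusted p 3.07e-05). Col6a5 lost its call without day 5 replicate 2 or day 10 replicate 2 (adjusted p 0.0541 to 0.0557).

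**Figure D2:**
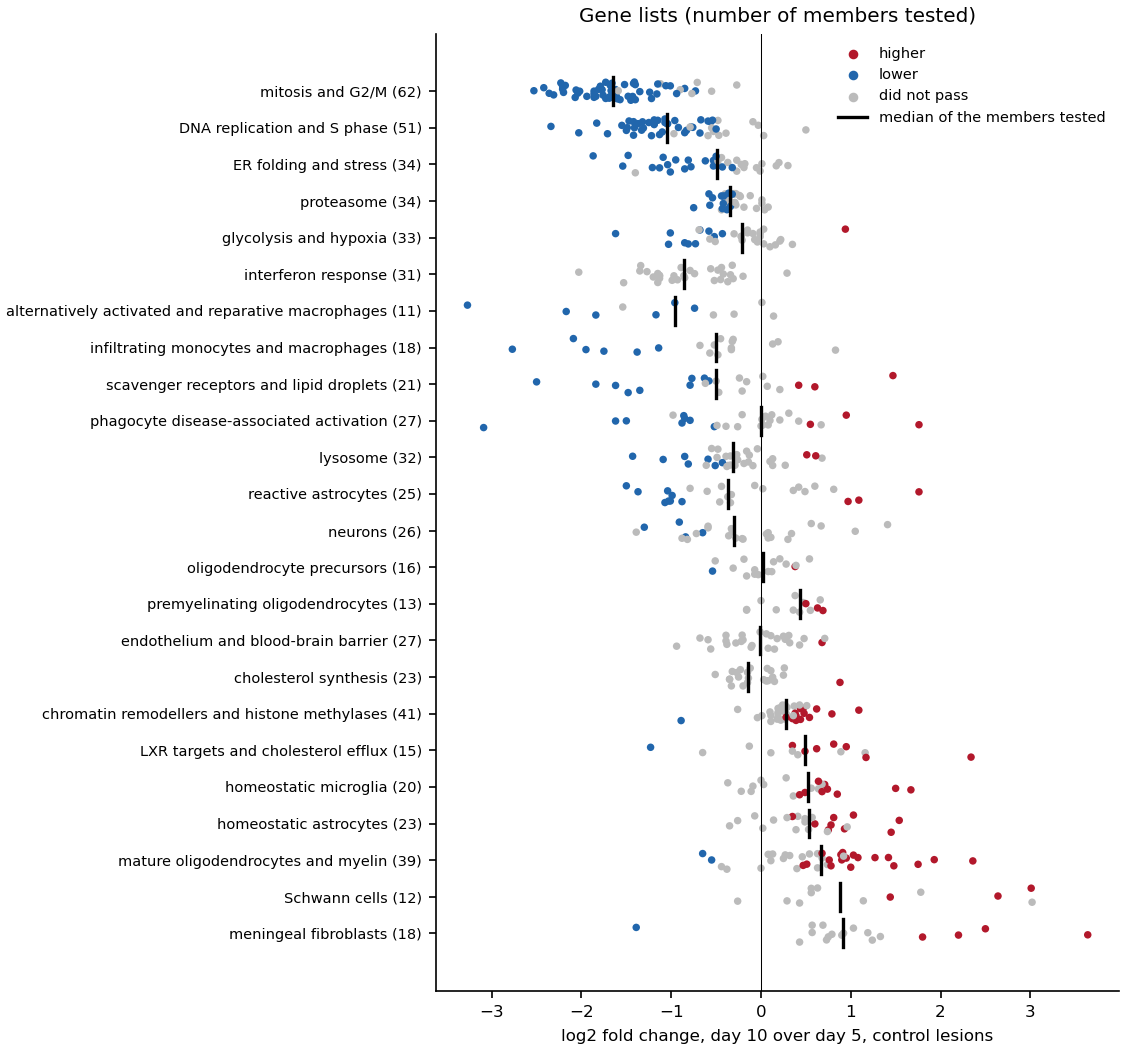
Each point is a member of a gene list at its log2 fold change of day 10 over day 5 in control lesions, in red where higher, blue where lower and grey where it did not pass. Black bars are list medians: mitosis lies at -1.64 and DNA replication at -1.05, and myelin at 0.67.

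Genes of mitosis were lower at day 10 nearly throughout. Of 62 tested members of a list of mitotic and G2/M genes, 55 fell, 0 rose and 7 did not pass, and the median of the 62 was -1.64, against 6.64% lower calls and a median of 0.011 over all genes. Plk1 (ENSMUSG00000030867, chromosome 7, 122159439 to 122169873), a kinase that drives entry into mitosis and spindle assembly, was read at 14.9, 14.6, 17.5 and 20.4 CPM at day 5 and 4.1, 3.54, 3.35 and 1.56 CPM at day 10. Every day 5 library lay above every day 10 library, at a mean ratio of 5.35-fold (log2 fold change -2.42, SE 0.31, adjusted p 0.000124). The survivin gene Birc5, part of the complex that corrects chromosome attachment, was at 8.59, 8.41, 10.3 and 12.1 CPM at day 5 and 2.58, 1.27, 1.77 and 1.15 CPM at day 10 (log2 fold change -2.53, SE 0.32, adjusted p 0.000124). Top2a, which untangles chromosomes, was at 71.8, 76.1, 59 and 80.1 CPM at day 5 and 24.5, 17.1, 33.5 and 21.7 CPM at day 10, and day 10 replicate 4 kept the highest level of its group. The proliferation antigen gene Mki67 fell from 43.3 ± 10.9 to 13 ± 1.24 CPM (SD, n = 4 at each day; log2 fold change -1.73, SE 0.25, adjusted p 0.000293). Summed over the list, day 5 libraries held 2141 to 2319 CPM and day 10 libraries 661 to 902.3 CPM. The day 5 libraries lay close together, and the groups were far apart. Kif2c, H2afx and Knl1 were the members that did not pass with the highest CPM, at -1.12, -0.71 and -0.55.

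Many promoters of these mitotic genes hold 2 short sequences. The cell cycle genes homology region (CHR, searched as TTTGAA and TTCGAA) is where the DREAM and MuvB complexes are known to bind, and the CCAAT box is bound by NF-Y. Among windows of 250 bases before to 50 after the start (1 window per gene, the first listed by RefSeq on GRCm38.p6, both strands), a CHR was found in 35 of the 43 lower mitotic genes that had a window (81.4%), against 1528 of 11085 tested genes (13.8%) and 19.4% of all 27025 genes with a window. A CCAAT box was found in 34 of the 43 (79.1%), against 38.4% of tested genes. Over all 49 tested members with a window, lower or not, the CHR was in 39 (79.6%) and the CCAAT box in 36 (73.5%). Lower members thus held the CHR about as often as the list as a whole. In the 250 bases before the start alone, a CHR was in 17 of the 43 (39.5%), against 12.2% of tested genes. It was there in 20 of the 49 (40.8%). The other matches lay across or past the start. The genes printed here were chosen after their values were seen. These 4 are printed with their 250 bases before the start, 5′ to 3′ on the gene's strand, because they hold both motifs there; capitals mark CHR and CCAAT matches on either strand.
Ube2c (chr2:164769679-164769928, plus strand): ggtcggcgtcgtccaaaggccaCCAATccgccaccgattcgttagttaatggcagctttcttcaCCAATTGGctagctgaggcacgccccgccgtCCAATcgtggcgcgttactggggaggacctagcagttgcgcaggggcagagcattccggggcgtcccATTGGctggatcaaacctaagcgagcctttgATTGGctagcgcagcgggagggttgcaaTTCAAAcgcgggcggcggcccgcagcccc
Cdc20 (chr4:118437344-118437593, minus strand): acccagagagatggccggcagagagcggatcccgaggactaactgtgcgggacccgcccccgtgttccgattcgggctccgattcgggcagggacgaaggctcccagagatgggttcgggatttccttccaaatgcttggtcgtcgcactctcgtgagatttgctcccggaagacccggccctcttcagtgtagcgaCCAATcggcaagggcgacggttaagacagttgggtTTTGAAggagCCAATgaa
Ckap2l (chr2:129297213-129297462, minus strand): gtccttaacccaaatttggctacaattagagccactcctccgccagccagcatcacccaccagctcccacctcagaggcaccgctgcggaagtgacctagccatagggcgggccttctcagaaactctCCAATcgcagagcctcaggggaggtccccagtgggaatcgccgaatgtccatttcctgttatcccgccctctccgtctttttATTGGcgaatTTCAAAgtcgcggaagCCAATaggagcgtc
Top2a (chr11:99024190-99024439, minus strand): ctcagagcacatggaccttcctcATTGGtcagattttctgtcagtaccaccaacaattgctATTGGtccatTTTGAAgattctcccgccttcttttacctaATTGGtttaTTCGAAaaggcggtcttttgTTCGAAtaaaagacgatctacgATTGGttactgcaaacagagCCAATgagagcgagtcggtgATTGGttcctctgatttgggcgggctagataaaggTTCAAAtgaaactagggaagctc
Ube2c, which loads ubiquitin for the anaphase-promoting complex, fell from 107 ± 12.2 to 23.1 ± 3.45 CPM (log2 -2.21), and its only CHR match here begins 29 bases before the start. Cdc20, the activator of that complex, fell by 1.68 on the log2 scale, with its CHR match between a pair of CCAAT matches. The spindle gene Ckap2l fell from 113 ± 13.7 to 32.3 ± 2.7 CPM. A match describes letters in a window; binding was not measured.

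DNA replication genes fell as well, by less. Of 51 tested members, 39 were lower, 0 were higher and 12 did not pass, with a median of -1.05. Rrm2, the regulated subunit of the enzyme that makes deoxynucleotides, was read at 55, 57.4, 59.8 and 57.6 CPM at day 5 and 11.9, 10.7, 20.2 and 13.5 CPM at day 10. The day 5 libraries lay within 54 to 60 CPM, and none of the day 10 libraries came near them. Mcm10, which helps to start replication forks, fell the most (log2 fold change -2.34, SE 0.45, adjusted p 0.00227), followed by Rrm2, Tk1 (-1.83), Cdc45 (-1.71) and Exo1 (-1.55). Mcm4 (-0.48, adjusted p 0.0721) and Rfc4 (-0.39, adjusted p 0.168) did not pass. The count of lower members was 29 to 39 when any 1 control library was left out. In their promoter windows the E2F site (TTTCCCGC, TTTCGCGC, TTTGCCGC or TTTGGCGC, both strands) was found in 16 of 39 tested members with a window (41%) and in 10 of the 30 that were lower (33.3%), so lower members did not hold it more often than the list as a whole, against 4.0% of tested genes. In the 250 bases before the start alone it was in 6 of the 30 (20%), against 3.34% of tested genes, and in the whole window a CHR was in 5 of 30 (16.7%). A pair of helicase subunit genes is printed, as above, with E2F matches in capitals. For this pair, unlike the other promoters printed, the bases after the RefSeq start were not found in a GENCODE transcript of the gene.
Mcm6 (chr1:128359706-128359955, minus strand): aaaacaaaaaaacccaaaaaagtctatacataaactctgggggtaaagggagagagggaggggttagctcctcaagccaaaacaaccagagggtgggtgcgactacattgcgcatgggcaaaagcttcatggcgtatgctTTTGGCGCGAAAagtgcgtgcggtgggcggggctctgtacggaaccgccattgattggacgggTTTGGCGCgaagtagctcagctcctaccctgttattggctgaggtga
Mcm5 (chr8:75109259-75109508, plus strand): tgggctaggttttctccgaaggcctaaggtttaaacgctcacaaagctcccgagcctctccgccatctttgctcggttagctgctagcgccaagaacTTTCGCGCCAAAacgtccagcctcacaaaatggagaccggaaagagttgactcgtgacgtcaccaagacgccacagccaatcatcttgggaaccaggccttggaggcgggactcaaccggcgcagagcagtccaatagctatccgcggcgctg
Mcm6 fell from 62 ± 6.35 to 27.2 ± 0.996 CPM and Mcm5 from 22.2 ± 1.86 to 9.73 ± 1.2 CPM, both at a log2 fold change of -1.19. In each, a pair of overlapping matches on opposite strands forms the longest run of capitals.

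Genes that set the G1 phase moved little beside these, where 5.66% of all genes tested were higher and 6.64% lower. Of 23 tested, 2 were higher and 3 lower, with a median of -0.07, and the higher count was 1 without day 5 replicate 2 or 5 or day 10 replicate 2, 3 or 5. Cyclin D1 (Ccnd1), the growth-factor-driven cyclin, fell from 287 ± 24.4 to 184 ± 28.2 CPM (log2 fold change -0.64, SE 0.14, adjusted p 0.00694), and Cdk2 fell by 0.52. The antiproliferative gene Btg2 rose from 24.8 ± 5.52 to 44.6 ± 8.55 CPM (log2 fold change 0.85, SE 0.20, adjusted p 0.00808). Cdk4 (-0.23, adjusted p 0.206) and the p53 target Ccng1 (-0.30, adjusted p 0.0826) did not pass.

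Mature oligodendrocyte and myelin genes were higher at day 10, and precursor genes had values on both sides of 0. Of 39 tested myelin genes, 18 rose (all genes: 5.66%), 2 fell (all genes: 6.64%) and 19 did not pass, with a median of 0.67. Tspan2 (ENSMUSG00000027858, chromosome 3, 102734529 to 102801513), a membrane protein of myelinating cells, was read at 182, 146, 193 and 186 CPM at day 5 and 1056, 967, 752 and 862 CPM at day 10. Opalin, a late marker of the lineage, was at 23.8, 26.9, 24.6 and 23.3 CPM at day 5 and 95.8, 81.4, 105 and 92.3 CPM at day 10. Neither gene had overlapping groups, and the 4 day 5 values of Opalin lay within 4 CPM of each other. Erbb3, a receptor for neuregulins, rose 3.36-fold (log2 fold change 1.75, SE 0.21, adjusted p 9.87e-05). Mbp, the protein that holds the membrane layers of compact myelin together, was at 4122, 6244, 4989 and 5099 CPM at day 5 and 9416, 8889.9, 9752 and 10045 CPM at day 10 (log2 fold change 0.90, SE 0.19, adjusted p 0.00444). Mog, on the outer face of the sheath, rose from 139 ± 24.4 to 284 ± 14.8 CPM (log2 fold change 1.03, SE 0.23, adjusted p 0.00625). In Mbp and Mog alike the highest day 5 library lay below the lowest day 10 library. The 2 lower members were Anln, a septin partner, and Trf, the iron carrier transferrin. Anln lost its call without day 5 replicate 1 or 5 or day 10 replicate 3, 4 or 5 (adjusted p 0.0751 to 0.109), and Trf without day 5 replicate 2 (adjusted p 0.0577). Ugt8a, an enzyme of myelin galactolipids (0.67, adjusted p 0.053), and Cldn11 (0.40, adjusted p 0.122) did not pass.

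Earlier stages of the lineage gave values on both sides of 0. Of 16 precursor genes 1 rose and 1 fell, near the 5.66% and 6.64% of all genes tested, with a median of 0.02. Pdgfra, a growth factor receptor used here as a precursor marker, was read at 169, 169.5, 184 and 139.6 CPM at day 5 and 239, 197, 214 and 212 CPM at day 10 (log2 fold change 0.38, SE 0.11, adjusted p 0.0354). Which cells in the cut it came from was not tested. Its groups did not overlap, but the call was lost without day 5 replicate 1, 2 or 6 or day 10 replicate 2, 4 or 5 (adjusted p 0.0604 to 0.0981). Nkx2-2, a transcription factor of the lineage, fell (log2 fold change -0.54, SE 0.16, adjusted p 0.0342) and lost its call without day 5 replicate 1, 5 or 6 or day 10 replicate 2, 3, 4 or 5 (adjusted p 0.0518 to 0.12). Olig2 was at 117 ± 21.3 to 129 ± 5.21 CPM, with overlapping groups (0.14, adjusted p 0.545), and Vcan at -0.16. Premyelinating genes had 3 of 13 higher, with a median of 0.43, and the receptor gene Gpr17, which marks cells between precursor and myelinating stages, was at 247, 179.6, 134 and 207 CPM at day 5 and 222, 227, 151 and 170.4 CPM at day 10. These groups overlap fully, at a log2 fold change of 0.00 (SE 0.24). Bcas1, expressed in early myelinating cells, gave 328 ± 51.3 to 294 ± 12.5 CPM (-0.16, adjusted p 0.547). The premyelinating count was 1 without day 5 replicate 1 or 5 or day 10 replicate 2. Summed over each list, precursor genes held 1167 to 1290 CPM at day 5 and 1256 to 1493 at day 10, while myelin genes held 14610 to 19720 and 30670 to 34610 CPM.

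**Figure D3:**
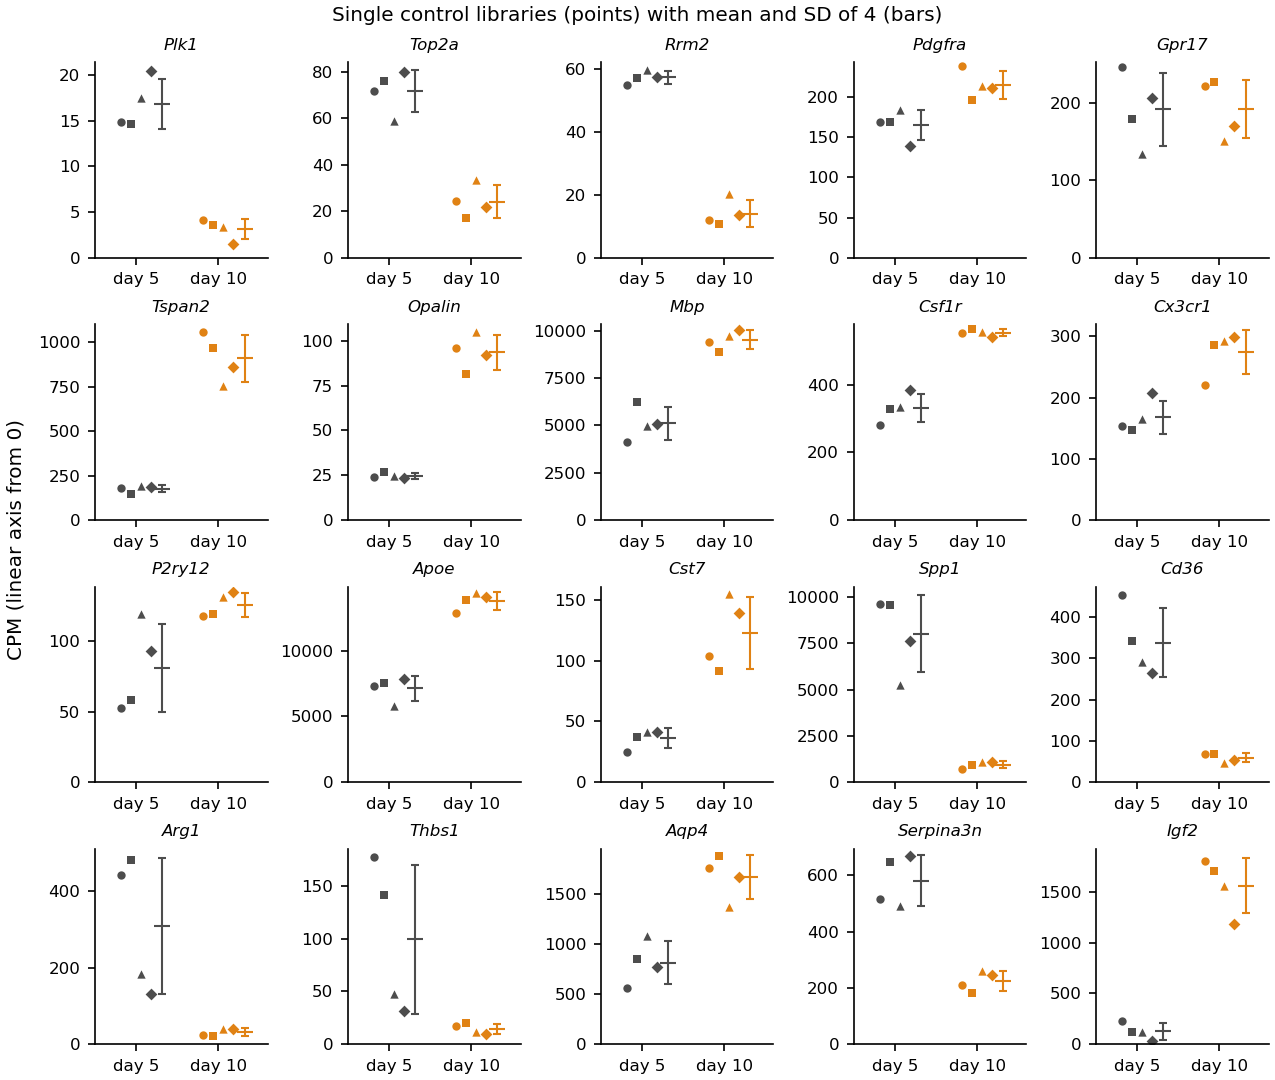
Points are single control libraries (circle, square, triangle and diamond in the order of replicates) in CPM on linear axes from 0; bars are the mean and SD of 4. Plk1, Top2a, Rrm2, Spp1, Cd36, Arg1, Thbs1 and Serpina3n lie lower at day 10; Tspan2, Opalin, Mbp, Csf1r, Apoe, Cst7 and Igf2 lie higher; Gpr17 overlaps.

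Microglial genes of the resting state rose in part, where 5.66% of all genes tested were higher. Of 20 tested, 9 were higher and 0 lower, with a median of 0.52. Csf1r, the receptor on which microglia depend for survival, was at 282, 328, 335 and 385 CPM at day 5 and 555, 566, 558 and 544 CPM at day 10 (log2 fold change 0.74, SE 0.11, adjusted p 0.00037), and the 4 day 10 libraries lay within 23 CPM of each other. The fractalkine receptor gene Cx3cr1 was at 154, 147, 165 and 207 CPM at day 5 and 221, 286, 293 and 299.9 CPM at day 10 (log2 fold change 0.71, SE 0.18, adjusted p 0.0132). Day 10 replicate 2 was the lowest of its group and still above all of day 5. Siglech rose from 19.2 ± 9.7 to 54.4 ± 11.5 CPM (log2 fold change 1.5, SE 0.30, adjusted p 0.00382) and Sall1, a transcription factor of microglial identity, by 0.85. Slc2a5 rose (log2 fold change 1.67, SE 0.45, adjusted p 0.0226) and lost its call without day 5 replicate 1 or 2 or day 10 replicate 3 or 4 (adjusted p 0.0503 to 0.0701). P2ry12, an ADP receptor of process-bearing microglia, was at 52.9, 58.6, 119.6 and 93.3 CPM at day 5 and 118, 119, 132 and 135 CPM at day 10, and did not pass (log2 fold change 0.64, SE 0.31, adjusted p 0.199). Day 5 replicate 5 reached the range of day 10. Tmem119 was split within day 10, at 294, 505, 389 and 530.3 CPM at day 5 and 242, 219, 515 and 497 CPM at day 10 (-0.22, adjusted p 0.707): replicates 2 and 3 were low and replicates 4 and 5 as high as the highest day 5 libraries. The summed list held 10570 to 13510 CPM at day 5 and 10090 to 13170 at day 10, and the groups overlapped.

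Genes of the activated, disease-associated phagocyte state split between both directions, where 5.66% of all genes tested were higher and 6.64% lower. Of 27 tested, 3 rose, 8 fell and 16 did not pass, with a median of 0.00. Spp1 (ENSMUSG00000029304, chromosome 5, 104435118 to 104441050), which encodes the secreted protein osteopontin, was at 9644, 9597, 5247 and 7627 CPM at day 5 and 683, 899.6, 1069.8 and 1108 CPM at day 10 (log2 fold change -3.09, SE 0.45, adjusted p 0.000479). It fell 8.54-fold with no overlap. The galectin genes Lgals3 (698, 687, 563 and 613 CPM at day 5 and 246, 207, 240 and 209.7 CPM at day 10) and Lgals1 (-1.62) fell too. The lysosomal membrane gene Cd68 was at 1076, 1009.5, 874 and 1314 CPM at day 5 and 465, 628, 620.1 and 635 CPM at day 10 (log2 fold change -0.86, SE 0.20, adjusted p 0.00912). Cst7, a cystatin that inhibits cathepsins, rose instead, at 24.3, 36.8, 41.6 and 41.6 CPM at day 5 and 104, 91.1, 155 and 139.6 CPM at day 10 (log2 fold change 1.76, SE 0.27, adjusted p 0.000615), as did Apoe, which carries lipid out of phagocytes and astrocytes, at 7323, 7550.1, 5759.9 and 7874 CPM at day 5 and 12848, 13822, 14371 and 14076 CPM at day 10 (log2 fold change 0.95, SE 0.12, adjusted p 0.000102). No library of Cst7 or Apoe overlapped between days. Trem2, the lipid-sensing receptor of this state, was at 127, 117, 137 and 167 CPM at day 5 and 125, 151, 152 and 152 CPM at day 10, with overlapping groups (0.08, adjusted p 0.769). Gpnmb was at 6367, 5694, 4269.6 and 5185 CPM at day 5 and 2832, 3423, 2443 and 2209.9 CPM at day 10. Its groups did not overlap, and the adjusted p was 0.0524 (-0.98).

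Genes typical of blood-derived macrophages and of their alternatively activated state fell or did not pass, and 0 rose. Of 18 monocyte and macrophage genes 6 fell, with a median of -0.50, where 6.64% of all genes tested were lower. Thbs1, encoding the matrix protein thrombospondin 1, was at 177, 142, 48 and 31.4 CPM at day 5 and 17, 20.3, 11.4 and 9.74 CPM at day 10 (log2 fold change -2.77, SE 0.50, adjusted p 0.00236). Day 5 replicates 1 and 2 were far above replicates 5 and 6, and the groups did not overlap. The coagulation factor gene F13a1 fell from 485 ± 227 to 126 ± 13.4 CPM (log2 fold change -1.95, SE 0.40, adjusted p 0.00518) and the chemokine receptor gene Ccr1 from 4.23 ± 1.97 to 0.972 ± 0.379 CPM. Lyz2, lysozyme of the myeloid cells, was at 11794, 11270, 6317 and 6458 CPM at day 5 and 5729, 6464, 5365 and 6546 CPM at day 10, again with day 5 replicates 1 and 2 high and replicates 5 and 6 in the day 10 range (log2 fold change -0.57, SE 0.21, adjusted p 0.0849). Ccr2, the receptor by which monocytes follow Ccl2, was at 26.6 ± 9.94 to 29.1 ± 8.23 CPM (0.13, adjusted p 0.842). Summed, this list held 14690, 14820, 8426 and 8189 CPM at day 5 and 6908 to 7825 at day 10. Lyz2 made up most of that sum in every library. Fn1 (fibronectin) fell from 1159.7 ± 473 to 528 ± 152 CPM and lost its call without day 5 replicate 1 or 2 or day 10 replicate 2, 3 or 5 (adjusted p 0.0501 to 0.0799).

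Of 11 genes of alternative activation 6 fell, with a median of -0.96, where 6.64% of all genes tested were lower. Arg1 (ENSMUSG00000019987, chromosome 10, 24915221 to 24927484), which diverts arginine from nitric oxide synthesis, was at 442, 481, 183 and 129.9 CPM at day 5 and 24.9, 22.5, 40.7 and 40.5 CPM at day 10 (log2 fold change -3.27, SE 0.54, adjusted p 0.00122). Every day 5 library lay above every day 10 library, and replicates 1 and 2 were again the highest. The mannose receptor gene Mrc1 fell from 21.4 ± 9.1 to 5.98 ± 3.93 CPM (log2 fold change -1.83, SE 0.43, adjusted p 0.0101), and the scavenger receptor gene Stab1 by 0.96. Chil3 fell (log2 fold change -2.17, SE 0.61, adjusted p 0.0259) and lost its call without day 5 replicate 1 or 2 or day 10 replicate 2 or 3 (adjusted p 0.067 to 0.0925). Tgm2 did not pass (-0.30, adjusted p 0.415).

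Genes of lipid uptake and droplets fell more often than they rose, and LXR targets and efflux genes rose more often than they fell. Among all genes tested, 5.66% were higher and 6.64% lower. Of 21 genes of scavenger receptors and lipid droplets, 9 fell and 3 rose, with a median of -0.50. Cd36, a receptor for oxidised lipid and fatty acids, was at 454, 343, 291 and 265 CPM at day 5 and 69.2, 67.8, 47.2 and 54.1 CPM at day 10 (log2 fold change -2.5, SE 0.36, adjusted p 0.00046). Msr1, scavenger receptor A, was at 395, 330, 254 and 258 CPM at day 5 and 74.3, 84.1, 95.6 and 91.1 CPM at day 10 (log2 fold change -1.84, SE 0.28, adjusted p 0.000445). Plin2, which coats lipid droplets, fell from 674 ± 122 to 241 ± 26.1 CPM (log2 fold change -1.48, SE 0.19, adjusted p 0.000138). No library overlapped in these 3. Dgat2, which makes triglyceride, rose from 3.51 ± 1.08 to 9.74 ± 2.41 CPM (log2 fold change 1.47, SE 0.32, adjusted p 0.00585), and Mgll and Acsl1 rose by 0.60 and 0.42. Of 15 LXR targets and efflux genes, 7 rose and 1 fell, with a median of 0.49. The 7 include Mylip, which marks the LDL receptor for breakdown, and the fatty acid desaturase gene Scd2, neither of them an exporter. Apoc1, an apolipoprotein encoded beside Apoe, was at 9.86, 5.42, 7.84 and 10.3 CPM at day 5 and 27.2, 43.1, 48.3 and 51.3 CPM at day 10 (log2 fold change 2.34, SE 0.30, adjusted p 0.000124). Pltp, a phospholipid transfer protein, rose from 80.3 ± 5.42 to 181 ± 21.1 CPM (log2 fold change 1.17, SE 0.19, adjusted p 0.000869), and Srebf1, which switches on fatty acid synthesis, by 0.81. The exporters Abcg1 (0.35) and Abca1 (0.41, adjusted p 0.0557) lay on either side of the threshold. Nr1h3, which encodes LXR alpha itself, fell from 5.29 ± 1.35 to 2.25 ± 0.695 CPM and lost its call without day 5 replicate 1, 2 or 6 or day 10 replicate 2, 4 or 5 (adjusted p 0.0612 to 0.114). Of 23 cholesterol synthesis genes 1 rose, Hsd17b7 (0.88), and 0 fell, with Fdft1 at -0.25 and Msmo1 at -0.27, neither past the threshold. The higher count there is near the share over all genes. Of 32 lysosomal genes 7 fell and 2 rose, with a median of -0.32: the alpha-galactosidase gene Gla (-1.43), the protease gene Ctsb (-0.85) and Psap (-0.81) fell. Grn (-0.55, adjusted p 0.0515) and Ctsd (-0.39, adjusted p 0.222) did not pass.

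Complement genes moved in both directions, where 5.66% of all genes tested were higher and 6.64% lower. Of 20 tested, 5 rose, among them Vtn (vitronectin, which blocks the membrane attack complex), Serping1 (the C1 inhibitor), C3 and C1s1. Vtn was at 27, 30.7, 24.2 and 17.9 CPM at day 5 and 133, 110.1, 108 and 93.4 CPM at day 10 (log2 fold change 2.15, SE 0.23, adjusted p 4.09e-05), Serping1 rose 2.94-fold and C3 2.84-fold. The 4 that fell were Cfp (properdin) and the myeloid receptors C5ar1, Itgb2 and C3ar1. These lower calls numbered 1 without day 5 replicate 1 or 2 or day 10 replicate 3, and 2 without day 5 replicate 6 or day 10 replicate 2, 4 or 5. C5ar1 fell from 138 ± 21.8 to 77.4 ± 12 CPM (log2 fold change -0.83, SE 0.14, adjusted p 0.00102). Clu, an extracellular chaperone that also blocks complement, did not pass (0.78, adjusted p 0.0515).

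Lists of antigen presentation and cytokines gave 0 to 3 calls per direction, where 5.66% of all genes tested were higher and 6.64% lower. Of 11 genes on the list of MHC class II presentation, 3 rose: H2-Oa (0.486 ± 0.358 to 3.24 ± 1.52 CPM), Cd83 (log2 fold change 0.93, SE 0.10, adjusted p 3.07e-05) and the costimulatory gene Cd86 (log2 fold change 0.83, SE 0.14, adjusted p 0.000908). H2-Aa, at -0.53, and Cd74, at -0.40, did not pass. Of 13 class I genes 0 rose and Erap1 fell (-0.63), losing its call without day 5 replicate 1 or 6 or day 10 replicate 4 or 5 (adjusted p 0.0538 to 0.0678). Of 31 interferon-response genes 0 passed in either direction, although 30 had a negative value and the median was -0.86. Their summed level was 1076 to 1760 CPM at day 5 and 601.2 to 1395 at day 10, where replicate 2 was the highest. Of 14 cytokine and NF-kB genes 2 rose and 2 fell. Without day 5 replicate 2 both counts were 0, the lower count was 0 also without day 5 replicate 5 or day 10 replicate 3 or 4, and it was 1 without any 1 of the others. Il1b rose from 0.937 ± 0.377 to 3.6 ± 1.0 CPM (log2 fold change 1.94, SE 0.50, adjusted p 0.0153) and lost its call without day 5 replicate 2 (adjusted p 0.0516). Of 24 chemokine genes 2 rose and 2 fell: Cxcl12, made by vessels, meninges and glia, rose 2.4-fold (log2 fold change 1.27, SE 0.20, adjusted p 0.000458), and Cxcl16 by 0.80. Ccl2, the monocyte attractant, fell from 28.3 ± 4.66 to 15.2 ± 3.03 CPM and lost its call without day 5 replicate 1, 2 or 5 or day 10 replicate 3, 4 or 5 (adjusted p 0.0503 to 0.0675). The granulocyte factor receptor Csf3r, here on a neutrophil list but also read in myeloid cells at large, rose from 79.2 ± 17.6 to 161 ± 25.9 CPM and made up most of the neutrophil sum given above. Mmp8, the neutrophil collagenase, fell (log2 fold change -1.94, SE 0.40, adjusted p 0.0039).

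Astrocyte genes of the resting state rose in part, and reactive genes fell more often than they rose. Among all genes tested, 5.66% were higher and 6.64% lower. Of 23 homeostatic genes 9 were higher and 0 lower, with a median of 0.53. The water channel gene Aqp4 was at 563, 849, 1086 and 769 CPM at day 5 and 1760.3, 1885, 1373 and 1675 CPM at day 10 (log2 fold change 1.03, SE 0.17, adjusted p 0.000755). Ntsr2 rose 2.91-fold (log2 fold change 1.54, SE 0.35, adjusted p 0.00844) and Agt (angiotensinogen) 2.74-fold. The glutamate transporter gene Slc1a3 rose from 159.6 ± 22.4 to 242 ± 19.8 CPM (log2 fold change 0.60, SE 0.11, adjusted p 0.00231). Mlc1 (0.74, adjusted p 0.0594), Slc4a4 (0.57) and Kcnj10 (0.49) did not pass. The count of 9 became 5 without day 5 replicate 1 or 2 or day 10 replicate 2, 3 or 5. Of 25 reactive genes 8 fell and 3 rose, with a median of -0.37. Serpina3n, a secreted protease inhibitor, was at 516, 647, 493 and 669 CPM at day 5 and 209, 183, 261 and 245 CPM at day 10 (log2 fold change -1.37, SE 0.15, adjusted p 5.29e-05), with every day 10 library under 270 CPM. The tissue inhibitor Timp1 fell from 24.6 ± 3.35 to 11.7 ± 2.91 CPM (log2 fold change -1.07, SE 0.20, adjusted p 0.00185), Tgm1 by 1.04 and S100a10 by 1.01. Emp1 fell by 1.03 and lost its call without day 5 replicate 1 (adjusted p 0.0501). Cp (ceruloplasmin) and the lipid receptor gene S1pr3 rose by 0.97 and 1.09. Gfap, the filament gene by which reactive astrocytes are usually stained, was at 1725, 2436, 3069 and 2761 CPM at day 5 and 3110.4, 3619, 3211 and 3429.6 CPM at day 10, and did not pass (log2 fold change 0.42, SE 0.19, adjusted p 0.161). Day 5 replicate 5 fell just short of the lowest day 10 library. Lgals3 and Cd44 on the reactive list are also expressed by phagocytes.

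Meningeal fibroblast genes had higher values at day 10 with 1 exception, and most did not pass. Of 18 tested, 17 had a positive value, 4 passed as higher and 1 as lower, and the median was 0.91. Among all genes tested, 5.66% were higher and 6.64% lower. Igf2, a growth factor read in the adult cord mainly in meninges and vessels, was at 229.8, 121, 123 and 29.6 CPM at day 5 and 1802, 1712, 1559.5 and 1182 CPM at day 10 (log2 fold change 3.64, SE 0.59, adjusted p 0.00117). No library overlapped, and day 5 replicate 6 was the lowest. Ptgds, prostaglandin D synthase, was at 29.2, 18.2, 34.8 and 36.6 CPM at day 5 and 153, 179.7, 139 and 200.3 CPM at day 10 (log2 fold change 2.5, SE 0.42, adjusted p 0.0014), and the transporter gene Slc6a13 at 1.51, 0.833, 0.535 and 1.02 CPM at day 5 and 5.01, 5.27, 4.75 and 3.11 CPM at day 10. Dpt rose (log2 fold change 1.8, SE 0.47, adjusted p 0.0175) and lost its call without day 5 replicate 2 or day 10 replicate 2 (adjusted p 0.0567 to 0.0639). Igfbp2 fell from 63.7 ± 15.1 to 24.3 ± 4.95 CPM (log2 fold change -1.39, SE 0.27, adjusted p 0.00288). The collagen-binding genes Dcn and Lum and Col1a1 did not pass: Dcn was at 193, 189, 97.8 and 58.1 CPM at day 5 and 327, 262, 221 and 207 CPM at day 10. The summed list held 3122, 3002, 1846 and 787.9 CPM at day 5 and 4329 to 5706 CPM at day 10. The day 5 libraries differed widely from each other, in the same order as for Dcn. Whether the cuts took in more meninges at day 10 was not tested. Igf2, Ptgds and Slc6a13 were higher at day 10, as was the sum of the list, but within day 5 Ptgds was highest in replicate 6, where Dcn and the sum were lowest.

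**Figure D4:**
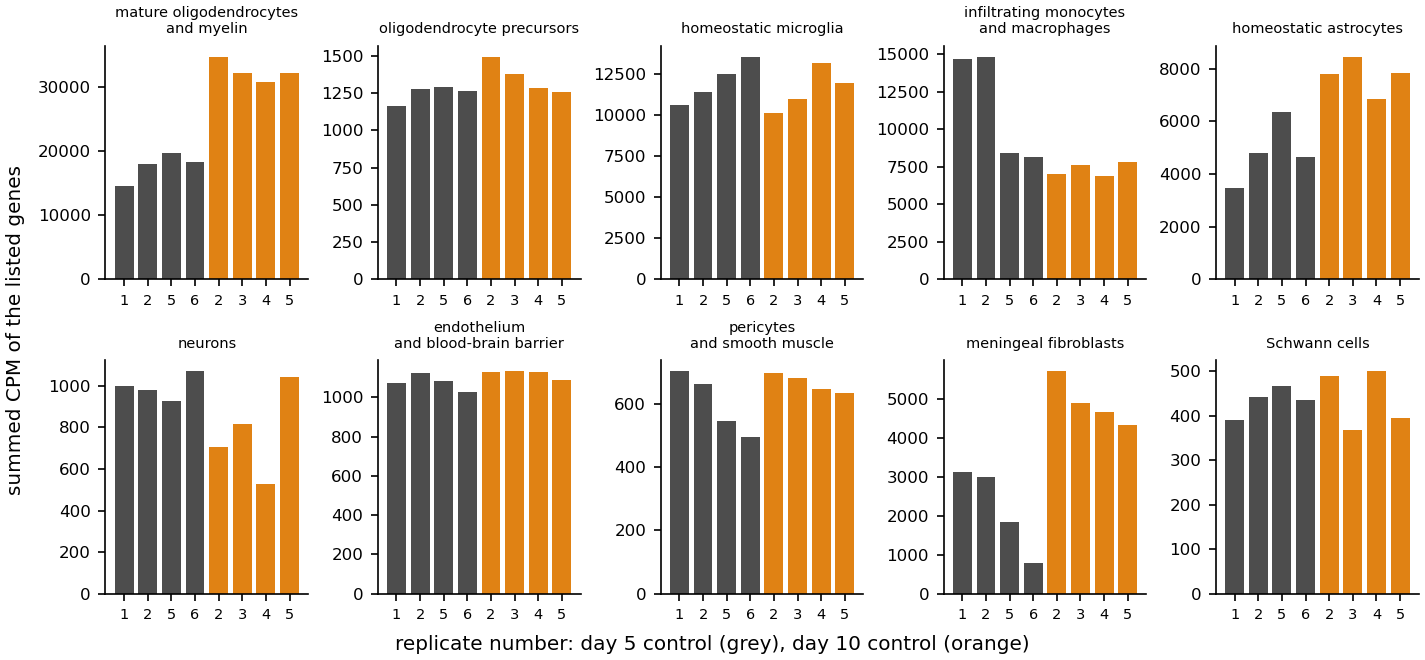
Each bar is 1 control library, with day 5 in grey and day 10 in orange and the replicate number beneath; its height is the summed CPM of a cell-type list, from 0. Myelin and fibroblast sums lie higher in every day 10 library, and endothelial sums overlap. Monocyte sums, mostly Lyz2, are high in day 5 replicates 1 and 2.

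Schwann cells of the nerve roots can enter such lesions and make peripheral myelin. Of 12 genes tested 3 rose and 0 fell, with a median of 0.88, where 5.66% of all genes tested were higher. The summed list held 389.7 to 467.1 CPM at day 5 and 367.9 to 499.8 CPM at day 10, and the groups overlapped. The sodium channel gene Scn7a rose (1.03, 0.75, 0.624 and 0.145 CPM at day 5 and 5.7, 3.82, 7.26 and 3.93 CPM at day 10; log2 fold change 3.01, SE 0.73, adjusted p 0.0109). Foxd3 lost its call without day 5 replicate 2, 5 or 6 or day 10 replicate 2, 3, 4 or 5 (adjusted p 0.0515 to 0.0914), and Pou3f1 without day 5 replicate 1, 2 or 5 or day 10 replicate 2 (adjusted p 0.052 to 0.109). The periaxin gene Prx gave 0.159, 2.0, 0.178 and 0 CPM at day 5 and 4.56, 1.45, 1.3 and 0.655 CPM at day 10 and Ncmap 0.954, 0.833, 1.6 and 0.073 CPM at day 5 and 2.58, 1.45, 0.745 and 0.491 CPM at day 10. Pmp22 was at -0.26 and Cdh19 at 0.56 (adjusted p 0.0518). The number of higher calls was 1 without day 5 replicate 5 or day 10 replicate 2 and 5 without day 5 replicate 2.

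Endothelial genes gave few calls and mural genes more, where 5.66% of all genes tested were higher and 6.64% lower. Of 27 endothelial genes 1 rose, the transporter gene Slco1a4 (log2 fold change 0.68, SE 0.16, adjusted p 0.00913), and 0 fell. Pecam1 was at 18.4, 16.3, 13.7 and 12.6 CPM at day 5 and 10.9, 10.4, 8.94 and 7.78 CPM at day 10 and did not pass (log2 fold change -0.68, SE 0.23, adjusted p 0.0599), with day 5 above day 10 in every library. Cldn5, of the tight junctions, gave 10.8 ± 1.89 to 11.6 ± 1.2 CPM and Cdh5 22.6 ± 11 to 18.6 ± 3.58 CPM. The summed list held 1027 to 1124 CPM at day 5 and 1087 to 1133 CPM at day 10. Of 15 mural genes 3 rose and 1 fell. Mcam rose 2.12-fold (log2 fold change 1.09, SE 0.19, adjusted p 0.00122) and the contractile gene Tagln fell from 59.4 ± 11.5 to 30.2 ± 4.17 CPM (log2 fold change -0.98, SE 0.17, adjusted p 0.00107). Notch3 rose and lost its call without day 5 replicate 1, 2 or 6 or day 10 replicate 2, 3, 4 or 5 (adjusted p 0.0597 to 0.13). Rgs5 (0.22) and Pdgfrb (0.77, adjusted p 0.0676) did not pass.

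Among 26 neuronal genes 4 fell and 0 rose, with a median of -0.30, where 6.64% of all genes tested were lower. Stmn2, which regulates axonal microtubules, was at 112, 141, 80.3 and 76.6 CPM at day 5 and 36.7, 35.2, 35.8 and 58.7 CPM at day 10 (log2 fold change -1.3, SE 0.25, adjusted p 0.00279). Gap43, a growth cone protein, was at 92.1, 122, 80.4 and 86.9 CPM at day 5 and 39.3, 54.2, 56.9 and 53.2 CPM at day 10 (log2 fold change -0.91, SE 0.21, adjusted p 0.00931). Tubb3 fell from 63 ± 5.46 to 35.1 ± 5.91 CPM (log2 fold change -0.84, SE 0.18, adjusted p 0.00464), and Uchl1 lost its call without day 5 replicate 1, 2 or 6 or day 10 replicate 2, 3 or 4 (adjusted p 0.0752 to 0.11). Snap25, of synapses, was at 69.7, 69.4, 90.7 and 194 CPM at day 5 and 79.7, 136, 37.9 and 193 CPM at day 10 and overlapped fully. The summed list held 929 to 1070 CPM at day 5 and 707.4, 816.3, 526.2 and 1041 CPM at day 10, where replicate 5 lay in the day 5 range and replicate 4 was the lowest. These are the replicates at the ends of the second scaling dimension.

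Growth factor and matrix genes held single large changes. Over all genes tested, 5.66% were higher and 6.64% lower. Of 13 genes of the insulin-like growth factor system, 2 rose and 3 fell. Igf1, the factor made by phagocytes, was at 759.7, 537, 481 and 446 CPM at day 5 and 555, 604, 526 and 541 CPM at day 10, at a log2 fold change of 0.00 (SE 0.17), beside the rise of Igf2. Igfbp4 rose from 66.7 ± 9.31 to 142 ± 21 CPM (log2 fold change 1.09, SE 0.16, adjusted p 0.000262), and the decoy receptor gene Igf2r fell by 0.84. Mmp3, stromelysin 1, was at 0.954, 1.83, 1.87 and 1.16 CPM at day 5 and 12.5, 9.18, 12.2 and 15.8 CPM at day 10 (log2 fold change 3.09, SE 0.67, adjusted p 0.00607), and Adam8, a protease of activated myeloid cells, at 150.1, 136, 83.5 and 108 CPM at day 5 and 24.3, 22, 33.1 and 36.4 CPM at day 10 (log2 fold change -2.04, SE 0.27, adjusted p 0.000179). Neither overlapped. Of 27 collagen and matrix genes 2 rose and 1 fell, near the shares over all genes, with a median of 0.65. The higher count was 1 without day 5 replicate 2, 5 or 6 or day 10 replicate 2, 3 or 4, and the lower count was 0 without day 5 replicate 1 or 2 or day 10 replicate 2, 3 or 5. Col15a1 rose from 28.2 ± 12.8 to 73.7 ± 14.3 CPM (log2 fold change 1.39, SE 0.30, adjusted p 0.00586), while the abundant Col1a2 (0.57) and Col3a1 (0.75) did not pass. Of 17 chondroitin sulfate proteoglycan and tenascin genes, which encode matrix that hinders oligodendrocyte growth, Bcan alone passed (log2 fold change 1.16, SE 0.20, adjusted p 0.00107). That count, too, is near the share over all genes. Of 37 Wnt genes 4 rose and 0 fell, with a median of 0.37: Prickle1 was at 111, 109, 88 and 105 CPM at day 5 and 350.2, 302, 317 and 313 CPM at day 10 (log2 fold change 1.63, SE 0.18, adjusted p 4.09e-05), and the ligand gene Wnt4 rose 2.94-fold. Of 28 TGF-beta and BMP genes 4 rose and 2 fell. The receptor gene Tgfbr1 rose from 269 ± 33.9 to 429.8 ± 56.6 CPM (log2 fold change 0.68, SE 0.12, adjusted p 0.00177). The number of higher calls was 1 without day 5 replicate 1 or 2 and 2 without day 5 replicate 6 or day 10 replicate 2. The number of lower calls was 1 without day 5 replicate 1, 2 or 5 or day 10 replicate 2, 3 or 5. Nrros, which presents latent TGF-beta on microglia, fell from 76.6 ± 4.82 to 43.2 ± 4.46 CPM (log2 fold change -0.83, SE 0.17, adjusted p 0.00354). Of the TAM receptors, which recognise dying cells and myelin debris, Tyro3 was at 6.52, 7.91, 8.38 and 8.5 CPM at day 5 and 32.7, 29, 20.1 and 22.6 CPM at day 10 (log2 fold change 1.74, SE 0.28, adjusted p 0.000648) and Mertk rose by 0.49, while Axl (0.42) and the ligand gene Gas6 (-0.72, adjusted p 0.0935) did not pass.

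Genes of protein folding in the endoplasmic reticulum were lower at day 10. Of 34 tested, 19 fell, 0 rose and 15 did not pass, with a median of -0.49. Hspa5, the chaperone BiP, which holds the sensors of the unfolded protein response in check, was at 379, 349, 458 and 420.3 CPM at day 5 and 194, 179, 208 and 155 CPM at day 10 (log2 fold change -1.13, SE 0.18, adjusted p 0.000791). The disulfide isomerase gene Pdia6 was at 222, 224, 230.4 and 242 CPM at day 5 and 95.1, 91.8, 112 and 97.8 CPM at day 10 (log2 fold change -1.21, SE 0.16, adjusted p 0.000124), and Asns, which makes asparagine, fell from 20.3 ± 8.62 to 7.28 ± 1.35 CPM (log2 fold change -1.48, SE 0.32, adjusted p 0.00548). None of these overlapped. Creld2 lost its call without day 5 replicate 2 or day 10 replicate 2, 3 or 5 (adjusted p 0.0592 to 0.0768). The summed list held 7172 to 7968 CPM at day 5 and 4733 to 5141 CPM at day 10. The ER stress response element (ERSE, searched as CCAAT and CCACG with any 9 bases between them, either strand), bound by NF-Y with ATF6, holds a CCAAT box and so overlaps that motif. It was found in 7 of 29 tested members with a window (24.1%), against 15 of 11085 tested genes (0.135%). Of the 17 lower members with a window, 6 held it (35.3%). The promoters of 4 of these 6 are printed as above, with ERSE letters in capitals.
Hspa5 (chr2:34771840-34772089, plus strand): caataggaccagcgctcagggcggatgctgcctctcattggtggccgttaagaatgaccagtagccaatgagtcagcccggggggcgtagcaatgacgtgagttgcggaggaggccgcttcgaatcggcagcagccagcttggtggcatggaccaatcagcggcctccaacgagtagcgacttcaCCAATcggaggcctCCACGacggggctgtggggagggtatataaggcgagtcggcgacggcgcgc
Pdia6 (chr12:17266339-17266588, plus strand): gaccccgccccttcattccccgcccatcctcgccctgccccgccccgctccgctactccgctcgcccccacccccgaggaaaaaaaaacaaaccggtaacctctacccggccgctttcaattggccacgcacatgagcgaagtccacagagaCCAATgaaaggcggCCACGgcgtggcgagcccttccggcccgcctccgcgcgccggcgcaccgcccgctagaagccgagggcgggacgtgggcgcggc
Calr (chr8:84846932-84847181, minus strand): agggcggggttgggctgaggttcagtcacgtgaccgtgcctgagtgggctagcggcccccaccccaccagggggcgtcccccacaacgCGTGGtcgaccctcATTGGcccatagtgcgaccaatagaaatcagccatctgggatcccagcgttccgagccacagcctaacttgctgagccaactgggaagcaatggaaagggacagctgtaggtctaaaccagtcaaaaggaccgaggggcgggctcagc
Hsp90b1 (chr10:86705445-86705694, minus strand): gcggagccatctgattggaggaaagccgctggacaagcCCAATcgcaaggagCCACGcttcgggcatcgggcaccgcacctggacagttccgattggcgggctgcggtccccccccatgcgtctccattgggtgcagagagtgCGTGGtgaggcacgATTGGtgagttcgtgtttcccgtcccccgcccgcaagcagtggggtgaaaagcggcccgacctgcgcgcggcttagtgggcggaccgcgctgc
Calr and Hsp90b1, a calcium-binding chaperone and the HSP90 of this compartment, fell by 0.95 and 0.85 on the log2 scale. Hsp90b1 holds 2 elements, on opposite strands. Of all 766 lower genes with a window 7 held an ERSE (0.914%), and these include the 6 list members counted above. Of 626 higher genes 0 did, which is no contrast to the 0.135% of tested genes.

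Other housekeeping groups had medians nearer to 0. Of 34 proteasome genes 13 fell and 0 rose, with a median of -0.34, and Psmd8 fell the most (log2 fold change -0.75, SE 0.14, adjusted p 0.00181). That count was 7 without day 5 replicate 2, 8 without day 5 replicate 6 and 4 without day 10 replicate 2. Of 33 genes of glycolysis and hypoxia 10 fell and 1 rose, with a median of -0.21; without day 10 replicate 2, 6 fell, and 0 rose without day 5 replicate 2, 5 or 6 or day 10 replicate 4 or 5. Ldha, lactate dehydrogenase A, was at 584, 636, 687 and 719.6 CPM at day 5 and 283, 286, 422 and 312 CPM at day 10 (log2 fold change -1.01, SE 0.21, adjusted p 0.00464), and Pgam1 fell by 0.85. The droplet gene Hilpda, a target of hypoxia signalling, fell by 1.62 and lost its call without day 5 replicate 1 or day 10 replicate 2 (adjusted p 0.056 to 0.0565). Of 70 nuclear genes of oxidative phosphorylation 6 fell and 0 rose, with a median of -0.17, a share near the 6.64% of all genes tested that fell; 3 fell without day 5 replicate 1 and 1 without day 10 replicate 2. Ppargc1a, the coactivator of mitochondrial biogenesis that the series title names, was at 3.26, 5.75, 4.1 and 4.14 CPM at day 5 and 7.67, 10.5, 8.66 and 13.2 CPM at day 10 (log2 fold change 1.21, SE 0.28, adjusted p 0.00783). It was the single member of 16 on its list to pass, a share near the 5.66% of all genes tested that were higher. Cytosolic ribosomal protein genes had a median of 0.01, with 1 of 76 lower, and 0 without any 1 control library other than day 10 replicates 4 and 5. Hmox1, which breaks down heme, fell from 60.0 ± 17.4 to 18 ± 8.3 CPM (log2 fold change -1.74, SE 0.42, adjusted p 0.014), and the ferritin light chain gene Ftl1 from 2130.2 ± 347 to 1146 ± 196 CPM (log2 fold change -0.89, SE 0.18, adjusted p 0.00396).

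Genes of chromatin remodellers and histone methylases rose in part, by small amounts. Of 41 tested, 14 were higher and 1 lower, with a median of 0.28, where 5.66% and 6.64% of all genes tested were. Kmt2a, a histone H3 methylase, was at 56.6, 62.6, 77.6 and 65.3 CPM at day 5 and 136, 90.1, 94.7 and 131 CPM at day 10 (log2 fold change 0.79, SE 0.14, adjusted p 0.00163), and Kdm6b rose 2.12-fold (log2 fold change 1.09, SE 0.19, adjusted p 0.00121). Ezh2, the methylase of the Polycomb complex and an E2F target, fell from 25.6 ± 2.58 to 13.8 ± 2.31 CPM (log2 fold change -0.89, SE 0.16, adjusted p 0.00124). The 14 became 5 to 9 when any 1 of the 8 control libraries was left out, with 5 without day 10 replicate 2. These are long transcripts, with a median exon length of 11476 bases against 1551 for oxidative phosphorylation and 2189 for the proteasome. Over all genes tested, the share of called genes that were higher ran with exon length: 31.1% of 431 calls in the shortest quartile, 37.3%, 47.6%, and 64.6% of 514 calls in the longest quartile. The median log2 fold change ran from -0.06 to 0.09 over the same quartiles. The part of length in these small changes was not tested.

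The same days were compared in the 8 exercise libraries. No library is in both comparisons, but both use the estimate of spread shared by all 16 libraries. EdgeR's test of the difference between the day effects called 0 of 15096 genes (0%), with 1376 at an unadjusted p under 0.05, and DESeq2 called 9. By edgeR no change above was shown to differ between control and exercise lesions. The 9 of DESeq2 include 2 of the 15 largest rises: Adh1 went from 0.628 ± 0.606 to 5.37 ± 2.88 CPM in control and from 1.12 ± 0.758 to 0.435 ± 0.268 CPM in exercise (difference -4.45 by DESeq2, adjusted p 0.0324, and 0.4 by edgeR), and Gm16685 from 1.07 ± 0.813 to 14.9 ± 10.1 CPM and from 4.05 ± 3.04 to 1.35 ± 1.11 CPM (difference -5.38 by DESeq2, adjusted p 0.0313, and 0.4 by edgeR). Mitotic genes had a median of -1.23 in exercise (49 of 62 lower, where 4.90% of all genes were) beside -1.64 in control. Myelin genes had 0.26 (6 of 39 higher, where 5.17% of all genes were) beside 0.67, homeostatic astrocyte genes 0.08 beside 0.53, and ER folding genes -0.07 (3 of 34 lower) beside -0.49. Homeostatic microglial genes had 0.87 (14 of 20 higher) beside 0.52, and monocyte and macrophage genes -1.07 (11 of 18 lower) beside -0.50. Neuronal genes had -1.01 (11 of 26 lower) beside -0.30. Fibroblast genes had 0.61 (of 18, 1 higher and 1 lower) beside 0.91. Igf2 went from 110 ± 24.9 to 190 ± 125 CPM in exercise (log2 0.80, adjusted p 0.389), beside 3.64 in control. The difference between these 2 day effects did not pass by edgeR (adjusted p 0.424). Hspa5 went from 276 ± 56.6 to 263 ± 82.8 CPM in exercise (log2 -0.07, adjusted p 0.857), and Tspan2 from 189 ± 34.1 to 636 ± 305 CPM (log2 1.75, adjusted p 0.000566).

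**Figure D5:**
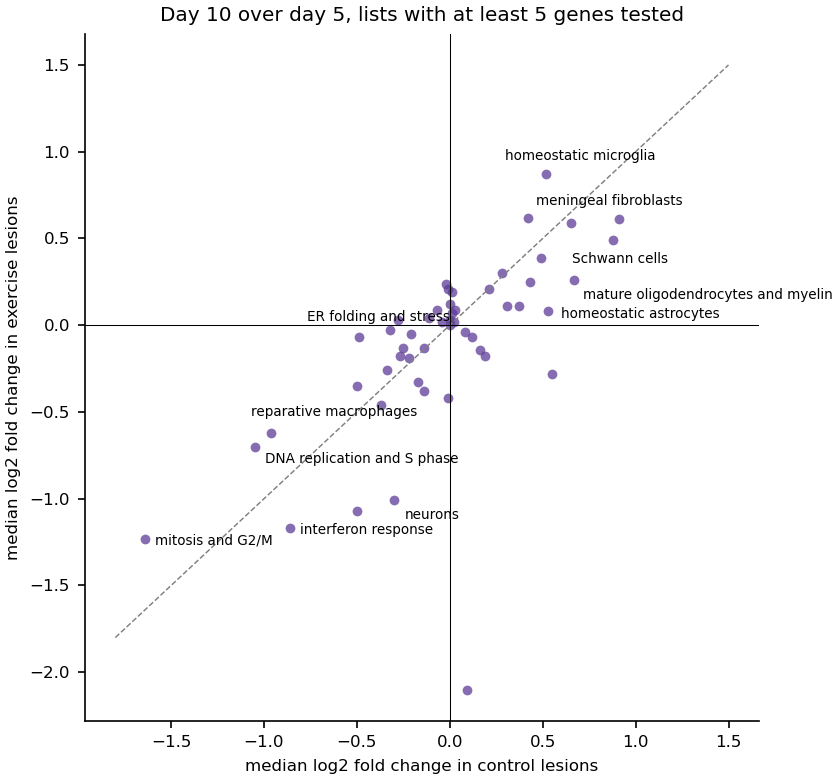
Each point is a gene list with at least 5 genes tested, at its median log2 fold change of day 10 over day 5 in control (horizontal) and exercise (vertical) lesions; the dashed line marks equal medians. Mitosis (-1.64 and -1.23) lies at the lower left and fibroblast genes (0.91 and 0.61) at the upper right.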

How the data were processed

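The authors' deposited raw counts give reads per Ensembl gene, from featureCounts 1.5.0-p1 on GRCm38 with the setting for same-strand reads, per the file headers. Reads of 75 nt were aligned with TopHat2 2.0.10 and Bowtie 1.1.2, per the submitters' processing notes. RNA was amplified, poly(A)-selected and sequenced single-end, per the labels' protocols. Symbols and coordinates are from GENCODE mouse release 21, which matched 45229 of 46078 gene IDs. Symbols of near-identical gene copies, such as H2-Aa and its relatives and ribosomal protein genes, are uncertain.

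Tests used edgeR 4.0.16 (R 4.3.3), with filterByExpr over the 4 groups at its minimum count of 10 and minimum total of 15, TMM scaling, and a robust quasi-likelihood fit with 1 mean per group over all 16 libraries (12 residual degrees of freedom, common biological coefficient of variation 0.236). P-values were adjusted by Benjamini-Hochberg over 15096 genes, and a gene was called at 0.05 or less. Mean ± SD is over 4 libraries. Alternatives used other scaling, filters, libraries, limma-voom (limma 3.58.1) and DESeq2 1.42.0.

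The 54 gene lists, the members and the tests were chosen with earlier results of these data known, so lists are described by counts and medians and carry no test. Named genes are the 15 higher and 15 lower called genes with the largest change, at least 5 CPM and no overlap, up to 5 called members per direction and 3 members that did not pass per list, a fixed set of markers, and those whose promoters are printed. Promoter sequences are RefSeq's, on GRCm38.p6, of which 11085 of 15094 tested symbols had 1. For 9242 of these, bases after the start lay in a GENCODE transcript of the gene in the same direction, and for 0 in the reverse. The authors' filtered, normalized and comparison tables were not used. Some genes are not reported here by name, and remain in the counts and medians of the lists.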

Additional observations from a re-analysis of the deposited data

Results flagged for a closer look

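In groups of 4 libraries, a library was marked where its gap to the next one was larger, relative to the group's range, than Dixon's 95% critical value for 4 samples. Chance marks about 1 in 20 groups, and 108 groups (the 30 genes with the largest changes and the fixed genes reported here, at each day) were examined. In 4 of them a library stood apart. Day 10 replicate 2 did so 3 times: it was the lowest for Cd68, at 465 CPM beside 620 to 635 in the others, the lowest for Trem2, at 125 CPM beside 151 to 152, and the highest for F7, at 1.9 CPM beside 1.47 to 1.54. Day 10 replicate 4 was the highest for Cep55, which acts in the last step of cell division, at 4.65 CPM beside 2.13 to 2.51, below every day 5 library.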

How the results depend on the processing

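The 1858 calls became 1861 with relative log expression factors, 1889 without mitochondrial genes, 1521 with no filter, 1859 at 1 CPM in 4 libraries, 2194 with the 8 control libraries alone, 1984 by limma-voom and 2370 by DESeq2. Without any 1 control library they ranged from 1301 to 1594 (higher 593 to 713, lower 707 to 883). No scaling moved the median of all genes by 0.1 or more. Labels 2 and 5 occur at both days, but mice of different days are different samples, and the deviations of same-numbered libraries correlated at 0.056 and 0.017. With the number as a fixed replicate block, which leaves 1 residual degree of freedom, 561 genes were called, 259 higher and 302 lower; as a random replicate block, 2400. For the difference between the day effects, DESeq2 called 9 genes where edgeR called 0, limma-voom called 0, and leaving out single libraries gave 0 to 1, with 1 without exercise replicate 1 of day 5. Of the 222 called genes under the naming rule, 0 changed direction in any alternative, 154 kept the call without any 1 control library, and 68 lost it without at least 1. Signs changed for 6 genes that had not passed. Without mitochondrial genes Gpr17 was at -0.0006 and Igf1 at -0.0016, and by limma-voom Snap25 was at -0.025. Leaving out single libraries gave -0.043 to 0.35 for Ccr2, -0.0027 to 0.18 for Cldn5, -0.14 to 0.15 for Gpr17, -0.080 to 0.19 for Igf1, -0.22 to 0.67 for the neutrophil gene S100a8 and -0.34 to 0.56 for Snap25. At 10714317 to 13930582 counts per library, genes of a few CPM rest on few reads.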

Other observations

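Immediate early genes, which neurons and glia switch on within minutes of a stimulus, moved in both directions: of 19 tested, 3 rose and 4 fell. Among all genes tested, 5.66% were higher and 6.64% lower. The higher count was 1 without day 5 replicate 5 or 6, and the lower count was 1 without day 5 replicate 2 or day 10 replicate 5 and 2 without day 5 replicate 6 or day 10 replicate 2 or 3. Egr1 was at 17.3, 15.7, 10.9 and 11.6 CPM at day 5 and 27.9, 23.3, 45.6 and 30.3 CPM at day 10 (log2 fold change 1.2, SE 0.25, adjusted p 0.00419), while Fos fell by 0.68 and lost its call without day 5 replicate 2 or day 10 replicate 3 or 5 (adjusted p 0.0634 to 0.0678). Among 13 genes that respond to glucocorticoids, 3 rose and 1 fell, the lower count near the share over all genes. The clock gene Per1 was at 8.59, 11.4, 13.2 and 13.2 CPM at day 5 and 21.7, 29.5, 22.8 and 22.8 CPM at day 10 (log2 fold change 1.06, SE 0.21, adjusted p 0.0026), and Ddit4 rose by 0.73. Fkbp5, a chaperone that damps the receptor, fell from 161 ± 11.1 to 106 ± 24.9 CPM and lost its call without day 10 replicate 2 or 3 (adjusted p 0.0651 to 0.0654). In exercise it went from 144 ± 28.3 to 219.8 ± 26.5 CPM, and DESeq2 called the difference between the day effects (1.21 on the log2 scale, adjusted p 0.00544), which edgeR did not (adjusted p 0.296). Among 17 genes of neurotrophic factors, Ntrk2, the BDNF receptor, rose from 82.3 ± 9.2 to 118 ± 9.86 CPM (log2 fold change 0.52, SE 0.13, adjusted p 0.0143).

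A few genes, chosen after their values were seen, were high in a single day 10 library. Acbd4 was at 1.35, 2.58, 1.96 and 2.54 CPM at day 5 and 9.19, 2.73, 52.8 and 1.15 CPM at day 10, with replicate 4 apart, and Fah was at 4.21, 56.9, 43.9 and 6.03 CPM at day 5 and 6.68, 9.82, 5.96 and 81.5 CPM at day 10, with replicate 5 apart. Neither passed the threshold (adjusted p 0.0952 and 0.963).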
